A study of Mus musculus with 12 samples.

Results

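The mouse mitochondrial genome encodes 37 genes, and RNA assigned to them was measured in whole hearts of 6 mice whose heart muscle cells had lost cytochrome b5 reductase 3 (ac-CYB5R3–KO) and of 6 control mice (ac-WT). The genes were chosen as every identifier in the count table whose mouse symbol starts with mt-, which gave 37 of the 53700 identifiers: 13 protein-coding genes, 2 rRNAs and 22 tRNAs. The ac-CYB5R3–KO mice carried CYB5R3fl/fl and Myh6-CreERT2, and the ac-WT mice carried CYB5R3wt/wt and Myh6-CreERT2. Mice of both groups therefore held the Cre recombinase, which the Myh6 promoter restricts to cardiomyocytes, and both received tamoxifen at 33 mg/kg per day for 5 days, between 10 and 13 weeks of age, with hearts taken 5 days later. The comparison asks what loss of CYB5R3, an enzyme that passes electrons from NADH to cytochrome b5 and other acceptors and is found in part on the mitochondrial outer membrane, did to the heart's RNA. Each library held total RNA of a heart with all its cell types, so fewer cells of a type and less RNA per cell cannot be told apart in any value below.

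Mitochondrial DNA is a small circle that is transcribed from both strands into long precursors covering many genes each. The tRNAs lie between the rRNAs and mRNAs, and enzymes that cut at both ends of each tRNA free the RNAs on either side. The rRNAs form the core of the mitochondrial ribosome, and the 13 mRNAs all encode subunits of the respiratory chain and ATP synthase, whose other subunits come from nuclear genes. Heart muscle is packed with mitochondria and is known for a very high content of these transcripts.

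The order of the genes on the circle limits what short reads can tell apart, so the junctions that matter for the values below are shown here, with coordinates on NCBIM37 and sequences read from that reference, 5′ to 3′. On the plus strand the reading frame of mt-Atp8 runs 43 bases into that of mt-Atp6, and mt-Nd4l runs 7 bases into mt-Nd4, with the shared bases in capitals at chrM:7897-7999 and chrM:10137-10203. On the minus strand, mt-Nd6 ends in 14 bases that also lie, on the other strand, in mt-Nd5 (capitals, chrM:13552-13595), and mt-Ts1 ends in 3 bases that oppose the end of mt-Co1 (capitals, chrM:6870-6938). The last sequence holds mt-Tc and mt-Tn, a minus-strand pair with 32 bases between them in capitals (chrM:5089-5257), the place where replication of the light strand starts.
mt-Atp8 and mt-Atp6: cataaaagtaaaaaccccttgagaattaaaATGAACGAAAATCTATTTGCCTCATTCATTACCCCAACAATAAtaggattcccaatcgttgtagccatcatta
mt-Nd4l and mt-Nd4: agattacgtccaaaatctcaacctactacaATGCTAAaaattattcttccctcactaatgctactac
mt-Nd6 end: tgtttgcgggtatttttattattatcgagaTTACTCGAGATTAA
mt-Ts1: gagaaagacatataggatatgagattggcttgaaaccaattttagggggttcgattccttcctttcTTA
mt-Tc to mt-Tn: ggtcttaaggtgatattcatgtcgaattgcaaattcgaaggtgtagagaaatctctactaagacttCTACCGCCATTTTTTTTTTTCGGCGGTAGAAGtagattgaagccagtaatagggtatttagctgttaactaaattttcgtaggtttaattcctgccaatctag

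Much of the mitochondrial genome also exists as near-identical copies in nuclear chromosomes, and this touched the counts of the mRNAs directly. The longest close copy, at chr1:24618374-24623027 on the minus strand, matched mitochondrial bases 6390 to 11042, from the end of mt-Co1 into mt-Nd4, at 99.936% of 4654 aligned bases. It differed by 2 bases and 1 inserted base. Both base differences are shown in capitals, each with the bases that surround it, as the mitochondrial sequence and then the nuclear copy. A6393T gives the mitochondrial base, its position on chrM and the nuclear base in mt-Co1, and T9461C does the same in mt-Nd3.
mitochondrial, 6393: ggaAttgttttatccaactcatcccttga
nuclear copy, 6393: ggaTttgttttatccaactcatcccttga
mitochondrial, 9461: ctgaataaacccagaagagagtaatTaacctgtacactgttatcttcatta
nuclear copy, 9461: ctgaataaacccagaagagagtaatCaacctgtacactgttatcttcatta

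At the read length of 75 bases, every window inside mt-Co2, mt-Atp8, mt-Atp6, mt-Co3 and mt-Nd4l (5 of the 13 mRNAs) occurred unchanged in a nuclear chromosome, as did 98.9% of windows in mt-Nd3, 61.5% in mt-Nd4 and 39.8% in mt-Co1. The share was 5.71% in mt-Nd2 and 1.66% in mt-Nd5. No window of mt-Nd1, mt-Cytb or mt-Nd6 (3 of the 13) had such a match, and neither did mt-Rnr1, while 2.85% of windows in mt-Rnr2 did. The count table reflected this overlap: Gm10222, a gene inside the chromosome 1 copy, held 0.156 to 0.457% more counts than mt-Nd4l in each of the 12 hearts. The identifier ENSMUSG00000102070 likewise held 0.0418 to 0.50% more counts than mt-Co2, and ENSMUSG00000101111 held 0.493 to 1.5% more than mt-Co3. In all, 15 nuclear identifiers either followed a mitochondrial gene closely from heart to heart or lay in a close copy. They held 20.4% ± 3.26 of all counts in ac-WT hearts and 17.9% ± 1.19 in ac-CYB5R3–KO hearts (mean ± SD, n = 6 each). Reads of a gene and its exact copy cannot be told apart, so values for mRNAs from mt-Co1 to mt-Nd4 may include reads of nuclear origin. Whether the near-equal counts came from reads counted at both places was not tested. Reads counted so would enter the total counts of a heart more than once. By contrast, mt-Nd1, mt-Nd6 and mt-Cytb are free of exact copies at this read length.

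**Figure D1:**
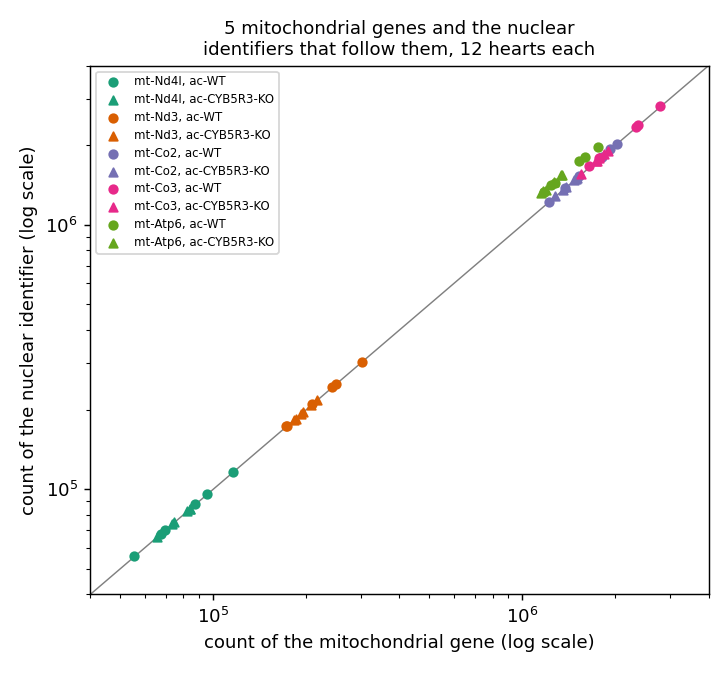
Counts of 5 nuclear identifiers (vertical axis) against those of the mitochondrial gene each follows (horizontal axis), both on log scales, with 1 point per heart, circles for ac-WT and triangles for ac-CYB5R3–KO. The grey line marks equal counts, and the points of mt-Nd4l, mt-Nd3, mt-Co2 and mt-Co3 lie on it, within 1.5%, while those of mt-Atp6 lie 11.9 to 15.3% above it.

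Libraries held 43393183 to 53754284 counts (median 48206995), and log2(CPM + 1) values correlated at 0.948 to 0.991 between ac-WT hearts and at 0.979 to 0.993 between ac-CYB5R3–KO hearts. Cyb5r3 itself ran from 81.9 through a median of 121 to 185 normalized CPM (counts per 1e+06 counts of a library, scaled by the trimmed mean of M values, TMM) in ac-WT hearts, and from 42.0 through 52.7 to 67.4 CPM in ac-CYB5R3–KO hearts. The groups did not overlap, with log2 fold change -1.22 ± 0.19 (SE) and a Benjamini-Hochberg adjusted p of 0.0450 in the edgeR quasi-likelihood test. That call was lost in 8 of the 12 fits that left out a heart (adjusted p = 0.0337 to 0.136). Hearts 2 and 3 of ac-WT stood apart from the rest: their TMM factors were 0.570 and 0.723, against 0.988 to 1.13 in the other ac-WT hearts, and their summed cardiomyocyte markers were 53837 and 42094 CPM against a group median of 26158 CPM (17085 to 28810 CPM in ac-CYB5R3–KO, where 8 of the 10 markers were lower, 4 at an unadjusted p under 0.05). Their summed fibroblast markers were 1420 and 1458 CPM against a group median of 4925 CPM. Red blood cell markers, 4 of 4 measured higher in ac-CYB5R3–KO and 3 at an unadjusted p under 0.05, summed to 222 to 4486 CPM in ac-WT and 1323 to 12226 CPM in ac-CYB5R3–KO hearts. Nuclear-retained RNAs, a sign of RNA quality, were lower in ac-CYB5R3–KO for 3 of 3 measured, 1 at an unadjusted p under 0.05, and summed to 258 to 2197 CPM in ac-WT (highest in heart 3) and 203 to 1372 CPM in ac-CYB5R3–KO hearts. Of 3 skeletal muscle markers 2 were lower, and of 3 cartilage and airway markers 2 were higher, at that p. The part that these differences had in the values below was not tested, and the main values are given with and without ac-WT hearts 2 and 3.

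Mitochondrial genes took a large part of the library in every heart: 24.8 to 35.3% of all counts in ac-WT hearts (median 28.6%) and 24 to 28.3% in ac-CYB5R3–KO hearts (median 26.8%). Nearly all of this was mRNA. The 13 mRNAs held 29.2, 33.9, 33.8, 26.4, 24.2 and 24.4% of counts in ac-WT hearts 1 to 6 and 27.8, 24.3, 23.6, 27.6, 27.3 and 25.4% in ac-CYB5R3–KO hearts 1 to 6. The groups overlapped, the mean was 28.7% ± 4.42 against 26% ± 1.81, and the difference of -2.64 percentage points was within the spread of the ac-WT hearts. With ac-WT hearts 2 and 3 left out, the ac-WT mean was 26.1% and the difference was -0.0436 percentage points. With the 15 nuclear copies left out of the total, the difference in mRNA share was -4.53 percentage points over all hearts, and without ac-WT hearts 2 and 3 the means were 32.0 and 31.7%.

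Both rRNAs together held a far smaller share, 0.868, 1.41, 0.938, 0.650, 0.617 and 0.456% in ac-WT hearts 1 to 6 and 0.442, 0.362, 0.388, 0.402, 0.440 and 0.458% in ac-CYB5R3–KO hearts 1 to 6. The ac-WT hearts were higher and more spread (0.824% ± 0.338 against 0.415% ± 0.0371), and only ac-WT heart 6 lay within the range of the ac-CYB5R3–KO hearts. The library kit named in the labels is of a type that removes rRNA before sequencing, so these counts are what that step left, and a difference in removal and a difference in rRNA level cannot be told apart. The tRNAs held 0.00938% ± 0.00222 of counts in ac-WT and 0.00786% ± 0.000967 in ac-CYB5R3–KO hearts, with overlap. Mature tRNAs are largely lost on the columns used to isolate the RNA, and they are 59 to 75 bases long here, so that for 21 of the 22 no read of 75 bases can lie wholly inside the gene.

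**Figure D2:**
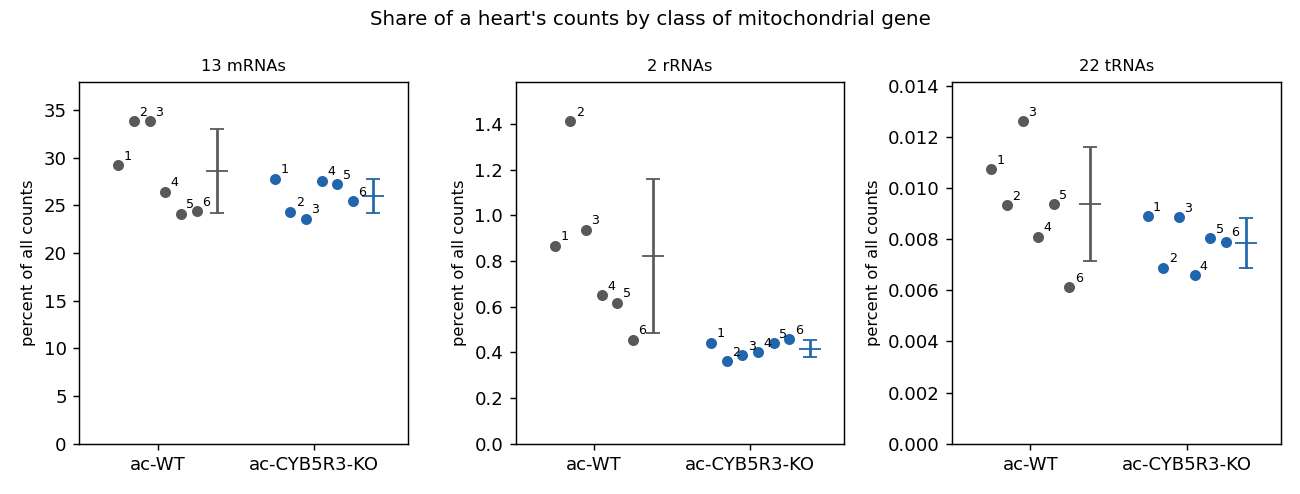
Percent of all counts assigned to the mitochondrial mRNAs, rRNAs and tRNAs, with 1 point per heart, numbered within its group, and the mean and SD of the 6 hearts beside them. The mRNA shares of the ac-CYB5R3–KO hearts lie between 23.6 and 27.8%, the rRNA shares of 5 of the 6 ac-WT hearts lie above all ac-CYB5R3–KO hearts, and the tRNA shares overlap.

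Levels of the mRNAs were compared per kilobase of gene, on the normalized CPM scale. The subunits of cytochrome c oxidase (complex IV), the enzyme that passes electrons to oxygen, were among the highest. In ac-WT hearts mt-Co3 averaged 66190 ± 32485 CPM per kb (SD, n = 6) and mt-Co1 61428 ± 30127, and they were not ordered reliably, since mt-Co3 exceeded mt-Co1 in 6 of 12 hearts. Below these, mt-Co1 exceeded mt-Co2 (58500 CPM per kb in ac-WT) in 10 of 12 hearts. The next in order was mt-Atp6 of ATP synthase, at 50942 CPM per kb in ac-WT and 34313 in ac-CYB5R3–KO hearts. The order of these 4 depended on the measure: counts per 75-base window that touches no other gene of the same strand, as means over the 12 hearts, were 2727 for mt-Co3, 2490 for mt-Co2, 2368 for mt-Atp6 and 2282 for mt-Co1.

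Per kb, the order below mt-Atp6 was the same in every heart except for mt-Nd3, which changed places with a neighbour in some hearts. Cytochrome b (mt-Cytb), the one subunit of complex III encoded here, averaged 29670 CPM per kb in ac-WT and 21546 in ac-CYB5R3–KO hearts, and it exceeded mt-Nd1 in 12 of 12 hearts. Among the 7 subunits of complex I, which takes electrons from NADH, the ac-WT means per kb descended from 23304 CPM for mt-Nd1 through 18452 for mt-Nd4, 15837 for mt-Nd3, 12810 for mt-Nd6, 11835 for mt-Nd2 and 6693 for mt-Nd4l to 5863 for mt-Nd5. Neighbours in this order kept it in 12 of 12 hearts except mt-Nd4 above mt-Nd3 (11) and mt-Nd3 above mt-Nd6 (9). The lowest mRNA per kb was mt-Atp8, at 3865 CPM per kb in ac-WT and 3091 in ac-CYB5R3–KO hearts, although it shares its transcript with mt-Atp6. Its gene of 204 bases had only 88 windows of 75 bases that touch no other gene on its strand, and per such window it had 380 counts, above mt-Nd4l (367) and mt-Nd5 (234), which was then the lowest.

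**Figure D3:**
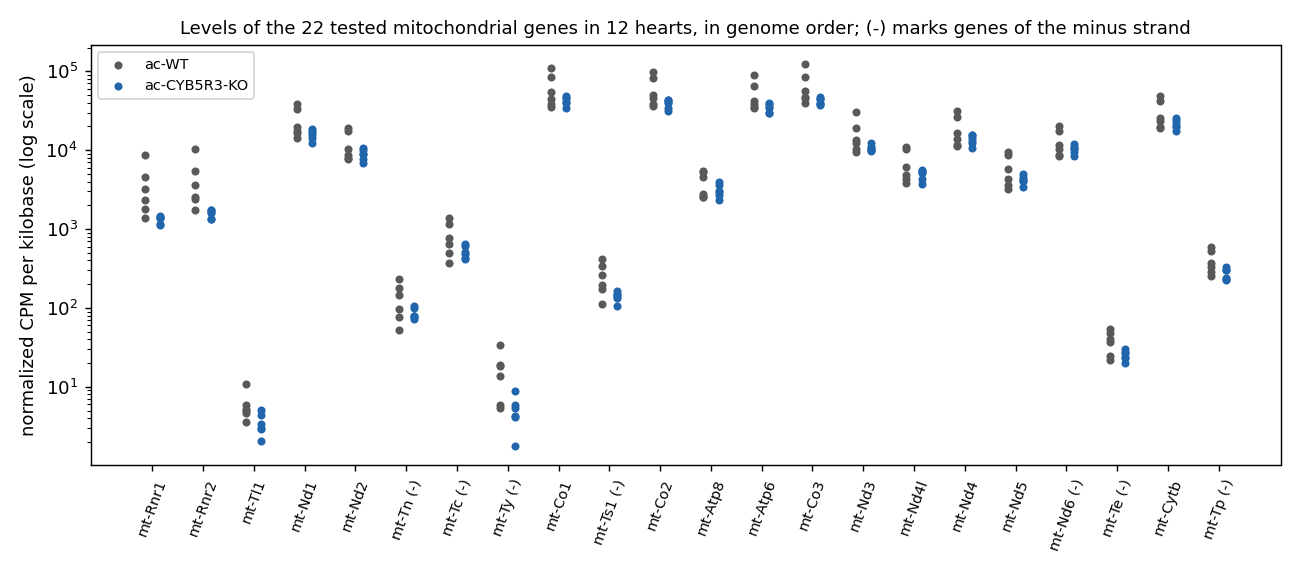
Level of each of the 22 tested mitochondrial genes in normalized CPM per kb of gene on a log axis, with 1 point per heart and genes in their order on the genome. The complex IV mRNAs and mt-Atp6 lie highest, mt-Atp8 lies lowest of the mRNAs on this scale, the 7 tRNAs lie far below, and the ac-WT points are more widely spread than the ac-CYB5R3–KO points.

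When ac-CYB5R3–KO hearts were compared with ac-WT hearts on the TMM scale, the 22 mitochondrial genes with enough counts to be tested (13 mRNAs, 2 rRNAs and 7 tRNAs) were all lower in ac-CYB5R3–KO hearts, beside 51.2% of all 17847 genes tested. None passed an adjusted p of 0.05 in edgeR, beside 0.101% of all genes, and 10 were lower at an unadjusted p under 0.05, beside 9.73% of all genes. By other tools, DESeq2 called 3 (mt-Rnr1, mt-Rnr2 and mt-Ty, beside 2.45% of all genes) and limma-voom called none. The 15 untested genes were all tRNAs. The median log2 fold change of the 13 mRNAs was -0.47, beside -0.0074 for all genes, and the mRNAs ranged from -0.65 to -0.31. That median rested on the ac-WT hearts that stood apart: it was -0.27 without ac-WT heart 2, and with hearts 2 and 3 both left out it was 0.00057, with 6 mRNAs lower and 7 higher (46.2% of all genes lower). The count of 10 was 5 without ac-WT heart 2 and 3 without both hearts, beside 4.52% of all genes.

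In complex IV, mt-Co3 ran from 31137 through a median of 40363 to 97665 CPM in ac-WT and from 29394 through 33011 to 37191 CPM in ac-CYB5R3–KO hearts. The groups overlapped, with every ac-CYB5R3–KO heart below the ac-WT median, and the log2 fold change was -0.65 ± 0.30 (SE, edgeR, unadjusted p = 0.0493, adjusted p = 0.340). mt-Co1, the catalytic subunit, ran from 54161 through 76663 to 172119 CPM in ac-WT and from 52502 through 67308 to 75900 CPM in ac-CYB5R3–KO hearts (log2 fold change -0.53 ± 0.33, adjusted p = 0.470). mt-Co2, which receives electrons from cytochrome c, had a log2 fold change of -0.59 ± 0.29. The ATP synthase pair were at -0.57 ± 0.28 for mt-Atp6 and -0.32 ± 0.23 for mt-Atp8, neither past the threshold. Leaving out ac-WT hearts 2 and 3 brought mt-Co3 to -0.15, mt-Co2 to -0.12, mt-Co1 to -0.0091, mt-Atp6 to -0.12 and mt-Atp8 to 0.0094.

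In complex I the lowest value was that of mt-Nd3, with 3263 to 10542 CPM in ac-WT (median 4473) and 3363 to 4326 CPM in ac-CYB5R3–KO hearts (median 3601). The groups overlapped and the log2 fold change was -0.58 ± 0.27 (edgeR, unadjusted p = 0.0483, adjusted p = 0.337). mt-Nd1, which has no exact nuclear copy, ran from 13784 through 17745 to 36571 CPM in ac-WT and from 11894 through 15275 to 17902 CPM in ac-CYB5R3–KO hearts, at a log2 fold change of -0.56 ± 0.27 (adjusted p = 0.359). The subunits mt-Nd2, mt-Nd4, mt-Nd4l and mt-Nd5 were between -0.47 and -0.42 on the log2 scale. mt-Nd6, the one mRNA of the minus strand, was nearest to no difference, with 4398 to 10389 CPM in ac-WT (median 5730) and 4418 to 6291 CPM in ac-CYB5R3–KO hearts (median 5423). Its log2 fold change was -0.31 ± 0.24 (adjusted p = 0.550). mt-Cytb of complex III was at -0.46 ± 0.28 (adjusted p = 0.463). With ac-WT hearts 2 and 3 left out, mt-Nd3 was at -0.086, mt-Nd1 at -0.098, mt-Nd6 at 0.086 and mt-Cytb at 0.00057.

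The rRNAs had larger differences than any mRNA. mt-Rnr1, the RNA of the small ribosomal subunit, ran from 1302 through a median of 2635 to 8246 CPM in ac-WT and from 1060 through 1333 to 1414 CPM in ac-CYB5R3–KO hearts. The ranges overlapped at their ends, and the log2 fold change was -1.46 ± 0.38 (SE, edgeR, unadjusted p = 0.00175, adjusted p = 0.173). mt-Rnr2, the RNA of the large subunit, ran from 2793 through 4885 to 16583 CPM in ac-WT and from 2114 through 2574 to 2766 CPM in ac-CYB5R3–KO hearts. The highest ac-CYB5R3–KO value was under the lowest ac-WT value, as in 1.04% of all genes tested, and the log2 fold change was -1.48 ± 0.38 (adjusted p = 0.173). DESeq2 gave adjusted p = 0.00974 for mt-Rnr1 and 0.00764 for mt-Rnr2. Without ac-WT hearts 2 and 3 both were at -0.70 (edgeR, adjusted p = 0.388 and 0.295). An unnamed identifier, ENSMUSG00000119584, was also high in ac-WT hearts 1 to 3 (1.91, 3.26 and 2.57% of all counts, 0.388 to 1.13% in the other ac-WT hearts and 0.265 to 0.954% in ac-CYB5R3–KO hearts), and whether it bears on the rRNA values was not tested.

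The tRNA counts were few and came almost wholly from the minus strand. Of the 22 tRNAs, 20 had a count in some heart, and mt-Tt and mt-Ts2 had 0 in all. The 8 minus-strand tRNAs held 99.0 to 99.7% of tRNA counts, and none of the 14 plus-strand tRNAs exceeded 23 counts in a heart. The 3 highest were mt-Tc (1281 to 3318 counts per heart), mt-Tp and mt-Ts1. The 3 lowest with any count were mt-Ti, mt-Tk and mt-Tr, with 1 count in 1 heart each. On the plus strand many tRNAs touch a large neighbour at both ends: 8 of the 22 have no 75-base window that avoids another gene on the same strand, and none of those 8 exceeded 5 counts. A low value for such a gene therefore does not speak to the level of its tRNA.

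The 7 tested tRNAs were lower in ac-CYB5R3–KO hearts, beside 51.2% of all genes, 6 of them at an unadjusted p under 0.05, beside 9.73%. None passed the adjusted threshold in edgeR. mt-Ty, the tRNA for tyrosine, had 68, 35, 81, 44, 19 and 19 counts in ac-WT hearts 1 to 6 and 30, 7, 23, 14, 19 and 14 in ac-CYB5R3–KO hearts 1 to 6. The groups overlapped, and the log2 fold change was -1.65 ± 0.46 (SE, edgeR, unadjusted p = 0.00306, adjusted p = 0.184, DESeq2 adjusted p = 0.0276). mt-Ts1, a tRNA for serine, ran from 7.81 through a median of 15.8 to 28.6 CPM in ac-WT and from 7.22 through 9.77 to 11.4 CPM in ac-CYB5R3–KO hearts. Its groups overlapped too, at a log2 fold change of -0.83 ± 0.26 (adjusted p = 0.195). mt-Tc, for cysteine, was at -0.64 ± 0.28, mt-Te, for glutamic acid, at -0.58 ± 0.22, and mt-Tp, for proline, at -0.52 ± 0.20. mt-Tl1, for leucine and the one plus-strand tRNA tested, was at -0.72 ± 0.30. For all 7 the counts cannot be assigned to the tRNA itself, since a 75-base read fits inside only mt-Tl1, at 1 position. In addition, mt-Ts1, mt-Te and mt-Ty have no 75-base window clear of a gene on the opposite strand. That matters if strands were not kept apart in counting. All 7 stayed below 0 without ac-WT hearts 2 and 3, beside 46.2% of all genes. Only 1 was then lower at an unadjusted p under 0.05, beside 4.52% of all genes. The log2 fold changes were -1.11 for mt-Ty, -0.40 for mt-Ts1 and for mt-Tl1, -0.29 for mt-Te, -0.16 for mt-Tp and -0.13 for mt-Tc.

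The way the libraries were scaled set how far the mRNAs stood from 0. With TMM factors computed from nuclear genes alone, the median of the 13 mRNAs was again -0.47 and all 22 genes were lower (51.3% of all genes), 8 of them at an unadjusted p under 0.05 (9.59% of all genes). With total counts of all genes as the scale, in which mitochondrial counts are part of the divisor, the mRNA median was -0.077 and 4 of the 22 were lower at an unadjusted p under 0.05, beside 2.06% of all genes. On that scale 20 of the 22 were lower, beside 18.1% of all genes, and mt-Atp8 and mt-Nd6 were slightly higher in ac-CYB5R3–KO hearts, at 0.028 and 0.060, and the median over all genes moved to 0.26. With total counts of nuclear genes the mRNA median was -0.16 (all genes 0.21) and 4 genes were lower at an unadjusted p under 0.05 (3.03% of all genes). With the nuclear copies also left out the median was -0.29 (all genes 0.12), and 5 genes were lower at that p (5.13% of all genes). The mRNA median lay below the median of all genes on each of these scales. A change of scale moves the log2 fold changes of all genes by a similar amount, so this position was largely set in advance. Both rRNAs were lower on each scale, at -0.97 and -0.996 with total counts of all genes and at -1.23 and -1.25 with nuclear counts without copies (mt-Rnr1 and mt-Rnr2, adjusted p = 0.15 to 0.194).

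**Figure D4:**
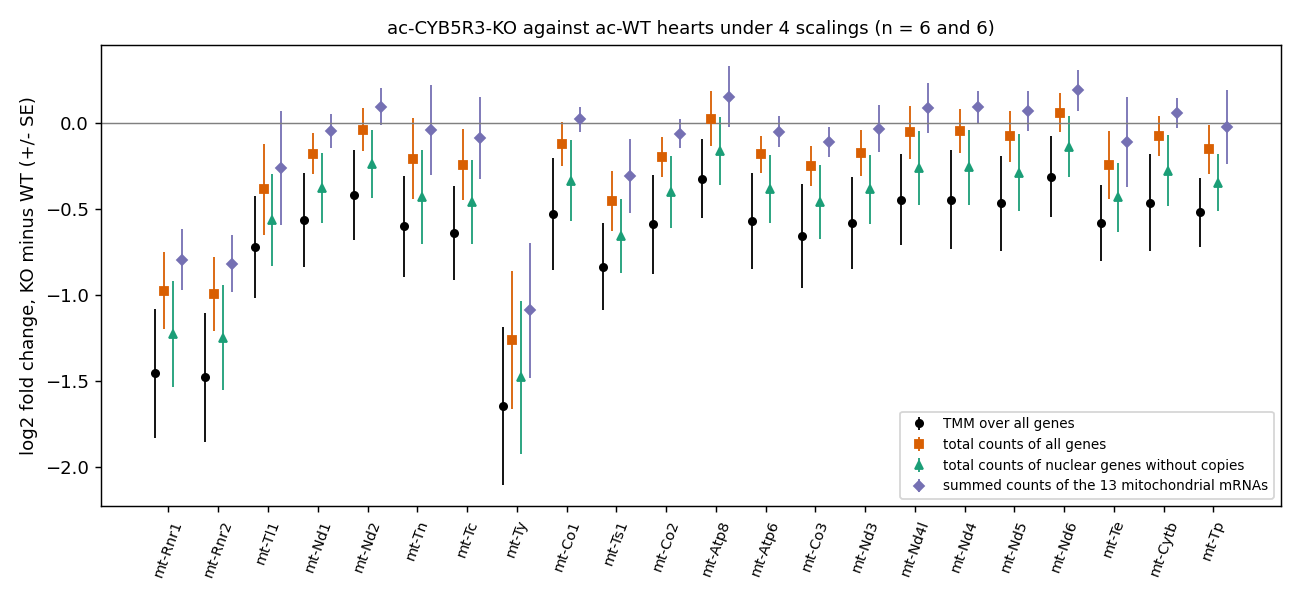
Log2 fold change of each tested mitochondrial gene, ac-CYB5R3–KO minus ac-WT, with bars of 1 SE from edgeR, under 4 ways of scaling the libraries (n = 6 and 6). Both rRNAs and mt-Ty lie furthest below 0 under each of the 4, an order that a change of scale hardly alters. The median mRNA moves from -0.47 on the TMM scale to -0.077 with total counts of all genes.

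Scaling by the mitochondrial mRNAs themselves compares the classes with each other rather than with the rest of the library. The rRNAs amounted to 2.97, 4.18, 2.77, 2.46, 2.56 and 1.87% of the mRNA counts in ac-WT hearts 1 to 6 and to 1.59, 1.49, 1.65, 1.45, 1.62 and 1.80% in ac-CYB5R3–KO hearts 1 to 6. Each rRNA alone was also lower per mRNA count in every ac-CYB5R3–KO heart than in every ac-WT heart, beside 0.118% of all genes. Both, and mt-Ty, were lower on this scale at an unadjusted p under 0.05, beside 0.79% of all genes. For mt-Rnr1 the log2 fold change on this scale was -0.79 ± 0.18 and for mt-Rnr2 -0.82 ± 0.17 (SE, edgeR, adjusted p = 0.167 and 0.110 over all genes), while the median over all genes was 0.34. Without ac-WT hearts 2 and 3 they were -0.61 ± 0.15 and -0.63 ± 0.14, and without ac-WT heart 6 the value of mt-Rnr2 was -0.91 with adjusted p = 0.0350. That was the only one of the 12 omissions of a heart in which either rRNA passed, and the adjusted p of mt-Rnr2 reached 0.323 in the others. The ratio of mt-Rnr1 to mt-Rnr2, which are copied next to each other, was 0.50 ± 0.0384 in ac-WT and 0.510 ± 0.0155 in ac-CYB5R3–KO hearts. These overlapped, with a mean log2 difference of 0.031 ± 0.048 (SE, exact permutation test over the 12 hearts, two-sided p = 0.530).

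The strands differed in the same frame. Minus-strand genes (mt-Nd6 and 8 tRNAs, 9 of the 37) held 2.04, 1.70, 1.93, 2.08, 2.04 and 2.05% of mitochondrial counts in ac-WT hearts 1 to 6 and 2.38, 2.51, 2.29, 2.16, 2.19 and 2.12% in ac-CYB5R3–KO hearts 1 to 6. The groups did not overlap, and mt-Nd6 made up 98.1 to 98.9% of these counts. As a share of all counts the minus strand was alike in range, at 0.578% ± 0.0643 in ac-WT and 0.60% ± 0.0470 in ac-CYB5R3–KO hearts, while the plus strand was at 28.9% ± 4.66 and 25.8% ± 1.80.

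Within the 13 mRNAs, mt-Nd6 made up 2.06, 1.75, 1.95, 2.11, 2.05 and 2.07% in ac-WT hearts 1 to 6 and 2.39, 2.52, 2.29, 2.16, 2.20 and 2.13% in ac-CYB5R3–KO hearts 1 to 6. The lowest ac-CYB5R3–KO share exceeded the highest ac-WT share, as in 0.521% of all genes scaled by the same mRNA counts, and no other mRNA had groups without overlap. The mean log2 difference was 0.19 ± 0.056 (SE, exact permutation test, two-sided p = 0.00216, the smallest that 6 against 6 can give, adjusted p = 0.00325 over 3 ratios tested). Against mt-Cytb alone, the neighbour on the other strand that has no exact nuclear copy either, the ratio of counts was 0.199 ± 0.00924 in ac-WT and 0.218 ± 0.00894 in ac-CYB5R3–KO hearts. This log2 difference was 0.13 ± 0.0365 (exact permutation p = 0.00216, adjusted p = 0.00325). Without ac-WT hearts 2 and 3 the differences were 0.14 and 0.088, each with an adjusted exact permutation p of 0.0357. Over all hearts, the edgeR fit with the mRNAs as scale gave mt-Nd6 0.19 ± 0.12 with adjusted p = 0.511. That was less than the median over all genes on this scale, given above.

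**Figure D5:**
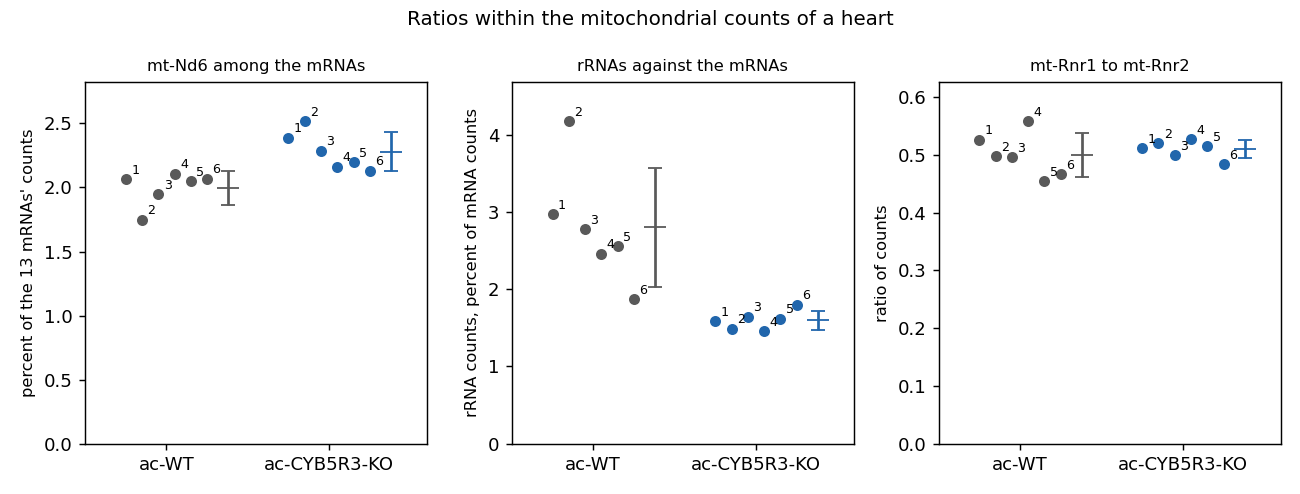
Ratios of counts within the mitochondrial genes, with 1 point per heart, numbered within its group, and the mean and SD of the 6 hearts beside them: mt-Nd6 as a percent of the 13 mRNAs, rRNAs as a percent of the mRNA counts, and mt-Rnr1 to mt-Rnr2. The groups do not overlap in the first and second, with mt-Nd6 between 2.13 and 2.52% in ac-CYB5R3–KO and between 1.75 and 2.11% in ac-WT hearts, and they overlap in mt-Rnr1 to mt-Rnr2.

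The proportions of the other mRNAs overlapped between the groups. mt-Co1 made up 27.5% of the mRNA counts in ac-WT and 27.9% in ac-CYB5R3–KO hearts, mt-Co3 15.1 and 14.1%, and mt-Co2 11.8 and 11.3%. mt-Cytb was at 10.0 and 10.5%, and mt-Nd4 at 7.43 and 7.93%. mt-Nd2 made up 3.65 and 3.90%, and mt-Atp8 0.240 and 0.267%. The ratio of mt-Nd4l to mt-Nd4, which are read from 1 transcript, averaged 0.0782 in both groups, while that of mt-Atp8 to mt-Atp6 averaged 0.0234 in ac-WT and 0.0269 in ac-CYB5R3–KO hearts, with overlap.

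Most nuclear genes for subunits of the same complexes also had lower values in ac-CYB5R3–KO hearts, beside 51.2% of all genes, and none passed an adjusted p of 0.05 in edgeR. At an unadjusted p under 0.05, 31 of 35 were lower for complex I, 7 of 9 for complex III, 10 of 11 for complex IV and 13 of 15 for ATP synthase, beside 9.73% of all genes. For complex I the median log2 fold change was -0.45 over the 7 mitochondrial subunits and -0.66 over 35 nuclear ones, all 35 of which were lower. For complex IV the medians were -0.59 over 3 mitochondrial and -0.66 over 11 nuclear subunits, and for ATP synthase -0.45 over 2 and -0.62 over 15. Complex III had mt-Cytb at -0.46 and 9 nuclear subunits at a median of -0.59, 8 lower and 1 higher (0.14). Without ac-WT hearts 2 and 3 the mitochondrial subunits were at medians of 0.038, -0.12, -0.056 and 0.00057 for complexes I, IV, V and III, and the nuclear ones at -0.30, -0.29, -0.29 and -0.26. The difference between the mitochondrial and nuclear medians was not tested.

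Genes of the machinery that copies and processes mitochondrial RNA showed no difference past the adjusted threshold in edgeR. Of 50 such genes listed, 49 were tested: 36 were lower and 13 higher, 6 lower and 1 higher at an unadjusted p under 0.05 (9.73 and 4.91% of all genes), with a median log2 fold change of -0.10. The polymerase gene Polrmt ran from 7.70 through 11.7 to 18.8 CPM in ac-WT and from 8.45 through 9.73 to 11.5 CPM in ac-CYB5R3–KO hearts (log2 fold change -0.33 ± 0.20, adjusted p = 0.448). Tfam, which packs the DNA and starts transcription, was at 0.083 ± 0.10, and Tfb2m, which opens the promoters, at 0.11 ± 0.12. Lrpprc, which stabilizes the mRNAs, was at -0.22 ± 0.15, and its partner Slirp (listed as 1810035L17Rik) had 1 to 6 counts per heart and was not tested. Without ac-WT hearts 2 and 3, Polrmt was at -0.00015, Tfam at 0.11, Tfb2m at 0.19 and Lrpprc at -0.073.

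Ppargc1a, a coactivator that raises the expression of mitochondrial genes, had the largest difference of the list. It ran from 18.7 through 27.1 to 80.3 CPM in ac-WT and from 12.4 through 15.5 to 25.3 CPM in ac-CYB5R3–KO hearts, and the groups overlapped (log2 fold change -1.10 ± 0.33, SE, with adjusted p of 0.191 in edgeR and 0.0438 in DESeq2). It was -0.48 without ac-WT hearts 2 and 3 (edgeR adjusted p = 0.609). The other genes of the list that were lower at an unadjusted p under 0.05 were Fastk (-0.79 ± 0.26) and Tbrg4 (-0.65 ± 0.20), a pair of related RNA-binding proteins, Mrm1 (-0.53 ± 0.21), which methylates the large rRNA, Hsd17b10 (-0.42 ± 0.17), a subunit of the enzyme that cuts the 5′ ends of tRNAs, and Trub2 (-0.35 ± 0.13), a pseudouridine synthase. They were -0.23, -0.27, -0.091, -0.18 and -0.15 in that order without ac-WT hearts 2 and 3. Rexo2, which degrades short RNA fragments in mitochondria, was the one higher gene, at 0.42 ± 0.16, and at 0.28 without those 2 hearts. All were at adjusted p of 0.191 to 0.272 in edgeR, and with total counts of all genes as the scale 9 of the 49 were lower and 40 higher, close to the 18.1% of all genes lower on that scale.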

How the data were processed

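RNA was isolated from frozen heart powder and sequenced as unpaired 75-base reads from a stranded total RNA library. The authors deposited raw read counts per Ensembl gene, not normalized or filtered. Per the labels' processing notes these came from STAR and featureCounts on GRCm39, while the study's methods name mm9 and FPKM values from Cufflinks, which were not used here. How reads matching several places were counted, and with which strand setting, is not given in the sources used here. Symbols matched 31027 identifiers (57.8%). Sequences, gene lengths and windows were taken from NCBIM37, and nuclear copies were found with BLAST 2.17.0 (identity of 90% or more over 200 bases or more) and by identifiers with a mean of at least 1000 counts whose log2 ratio to a mitochondrial gene varied by an SD of at most 0.09.

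Counts were tested with edgeR 4.0.16 (quasi-likelihood, TMM, Benjamini-Hochberg adjustment over all genes, R 4.3.3) in the 17847 genes that passed filterByExpr at a minimum count of 10. DESeq2 1.42.0, limma 3.58.1, other scalings, other filters, a replicate block and each heart left out in turn were alternatives. The edgeR script was also tested on simulated data. Ratios of counts were compared by exact two-sided permutation tests over all 924 placements of the 12 hearts (numpy 2.4.6). The biological coefficient of variation was 26.5%. Shares and lists have no test. The labels name 6 hearts per group and say no more on how they were handled, so p-values measure the spread between these libraries. All 37 genes were counted, and values were given for the mRNAs, the rRNAs, the 3 highest and 3 lowest tRNAs with a count, tRNAs at an unadjusted p under 0.05, and 6 genes of the RNA machinery with well-known roles plus those of its list at an unadjusted p under 0.05. The genes and lists were chosen with earlier results of these data known. Over all lists, 16 symbols were matched through older names.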

Additional observations from a re-analysis of the deposited data

Results flagged for a closer look

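In 90 sets of 6 values (a gene, share or ratio in the hearts of 1 group), 4 had a heart set far from the other 5 by Dixon's criterion (a gap that takes up most of the range), where chance alone gives about 1 in 20 sets. All 4 were the highest ac-WT heart. mt-Tl1 reached 0.804 CPM in that heart, with the next heart at 0.444 CPM. Hsd17b10 reached 77.6 CPM against 49.0 CPM in the next heart, and Tfb2m 26.3 CPM against 21.0 CPM. Slirp (1810035L17Rik) reached 0.167 CPM against 0.0830 CPM, a level of a few counts.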

How the results depend on the processing

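Of 1075 values recomputed under alternatives, 994 kept their direction and their side of the threshold, or moved by less than the spread between hearts. The 18 genes called among all genes became 437 with DESeq2, 2 with limma-voom, 8 with total counts of all genes, 11 with total counts of nuclear genes, 6 with the 13 mRNAs as scale, 35 with no filter, 6 without ac-WT hearts 2 and 3, and 2 to 33 when 1 heart was left out. Among mitochondrial genes DESeq2 called 3, and mt-Rnr1 (-1.47), mt-Rnr2 (-1.49) and mt-Ty passed there. The 10 mitochondrial genes lower at an unadjusted p under 0.05 became 4 with total counts of all genes, 4 with those of nuclear genes, 5 with nuclear counts without copies, 3 with the mRNA scale, 3 without ac-WT hearts 2 and 3, and 5 to 15 with 1 heart left out. The mRNA median of -0.47 became -0.077 with total counts, 0.061 on the mRNA scale, 0.00057 without hearts 2 and 3, and -0.59 to -0.27 with 1 heart left out. For the machinery list DESeq2 called 1, beside 2.45% of all genes. Its 6 genes lower at an unadjusted p under 0.05 became 2 with total counts of all genes and 3 with those of nuclear genes. They became 0 on the mRNA scale, 3 without hearts 2 and 3, and 4 to 14 with 1 heart left out. Over all genes the share lower at that p was 9.73% in the main fit. It became 2.06% with total counts of all genes, 3.03% with those of nuclear genes and 5.13% with nuclear counts without copies. It was 0.79% on the mRNA scale and 4.52% without hearts 2 and 3.

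Directions turned with total counts of all genes for mt-Atp8 (0.028), mt-Nd6 (0.060), Polrmt (0.022) and Lrpprc (0.073), and with total counts of nuclear genes for Lrpprc (0.016). On the mRNA scale they turned for mt-Nd2 (0.097), mt-Co1 (0.024), mt-Atp8 (0.16), mt-Nd4l (0.090), mt-Nd4 (0.095), mt-Nd5 (0.072), mt-Nd6 (0.19) and mt-Cytb (0.061). Without ac-WT hearts 2 and 3 they turned for mt-Nd2 (0.038), mt-Atp8 (0.0094), mt-Nd4l (0.061), mt-Nd4 (0.055), mt-Nd5 (0.018), mt-Nd6 (0.086) and mt-Cytb (0.00057). The causes were not tested. Cyb5r3 kept its direction in every alternative run and lost its call with limma-voom, both totals, nuclear totals without copies, the replicate block and 8 of the 12 omissions of 1 heart.

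The groups share replicate numbers, and a replicate block gave 2 calls among all genes, 5 mitochondrial genes lower at an unadjusted p under 0.05, and mt-Rnr2 on the mRNA scale at -0.78 (adjusted p = 0.0210). Hearts with the same number deviated together at a mean correlation of 0.133 (-0.160 to 0.360, 4 of 6 above 0.1), so the numbers were not taken as pairs. TMM without nuclear copies, nuclear totals without copies, the mRNA-scale fits that left out hearts or used the block and the share of counts without nuclear copies were chosen after seeing the data. Exact copies and few tRNA counts limit what the read counts can resolve.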
